A study of Mus musculus with 8 samples.

Results

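The genes described here encode bromodomain proteins of the BET family (Brd2, Brd3 and Brdt) and the positive transcription elongation factor P-TEFb (its kinase Cdk9, its cyclins Ccnt1 and Ccnt2, and its inhibitor Hexim1). They were found by gene symbol, 7 of 7, among the 18257 genes of the deposited table, with 3 BET genes and 4 P-TEFb genes. All 7 passed the filter on low counts, which kept 12936 genes for testing. BET proteins carry a pair of bromodomains that bind acetylated lysines, on histones and on other proteins, and they bring P-TEFb to chromatin. P-TEFb is CDK9 with cyclin T1 or T2. It phosphorylates RNA polymerase II and the pausing factors DSIF and NELF, which releases paused polymerase into elongation. HEXIM1, held on the 7SK small nuclear RNA, keeps a pool of P-TEFb inactive. In human cells, a higher level of HEXIM1 RNA is used as a marker of treatment with BET inhibitors, a class to which A485 does not belong.

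Polyadenylated RNA was measured in pools of 3 wild-type mouse embryos, labelled as morulae, whose zona pellucida had been removed. The treated group was cultured with 2 µM A485, which blocks the acetyltransferases p300 and CBP (4 libraries), and the control group with 0.1% DMSO, the solvent (4 libraries), both in KSOM medium. The DMSO content of the A485 medium is not given in the labels. The culture is described as lasting from the 4-cell to the blastocyst stage, although morulae were collected, and the strain is not stated in the sources used here. Each pool counts as a biological replicate in the labels, but no label ties pools to litters or culture days, so p-values measure the spread between these pools.

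Total estimated counts per library lay between 23641781 and 25677701. The A485 libraries differed among themselves more than the control libraries did: the chi-square per degree of freedom over genes was 61.7 to 215 between A485 pairs and 20.2 to 35.9 between control pairs. It was lowest among A485 pairs for replicates 1 and 2 (69) and for replicates 3 and 4 (61.7), so results that rest on either pair are given without it. Of 10 morula markers, all were detected in every library, and 9 were lower in A485 in the edgeR test. Summed levels of 12 cumulus and granulosa cell markers were 6.85 to 33.7 CPM in A485 libraries and 0.226 to 0.789 CPM in control libraries. All 3 of these markers that passed the low-count filter were higher in A485 in the edgeR test. The steroidogenic gene Cyp11a1 measured 1.81, 11.8, 27.9 and 19.1 CPM in A485 replicates 1 to 4 and averaged 0.0464 CPM in control. Inha, an inhibin subunit gene, averaged 1.46 CPM in A485 and was at 0 in every control library. Star, a cholesterol carrier gene, averaged 1.22 CPM in A485 and 0.377 CPM in control, and its call was lost in 6 of 19 alternatives. Of the untested markers, Inhba averaged 0.329 CPM in A485 and 0 in control, and Tnfaip6 averaged 0.514 CPM in A485 and 0.022 CPM in control. Fshr, Amh and Cyp19a1 stayed at or below 0.0821 CPM in every library. Summed oocyte markers (10 genes) were 13.2 to 23.5 CPM in A485 and 11 to 15.9 CPM in control. Most of that sum was Zp3, which averaged 11.8 CPM in A485 and 9.67 CPM in control. Of the 7 oocyte markers tested, 2 were higher in A485 and 0 lower in the edgeR test. Mos averaged 0.934 CPM in A485 and was at 0 in control. H1f8 averaged 1.91 CPM in A485 and 0.844 CPM in control, and its call was lost in 11 of 19 alternatives. Summed sperm markers (5 genes) were 0.329 to 0.78 CPM in A485 and 0.125 to 0.837 CPM in control. The part of these markers in the results below was not tested. In whole embryos, fewer cells of a type and less RNA per cell cannot be told apart.

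After A485, Hexim1, Cdk9 and Ccnt2 rose and Brd3 fell, while Brd2, Brdt and Ccnt1 did not pass the test. The largest change among the members was that of Hexim1, at 2.52-fold, followed by Cdk9 at 1.77-fold and Ccnt2 at 1.65-fold. Brd3 fell to 0.774 of its control level. By the quasi-likelihood test of edgeR, adjusted over all tested genes after Benjamini and Hochberg, 3 of 7 members were thus higher and 1 lower at an adjusted p of 0.05. Among all genes tested, 54.7% passed, with 29.7% higher and 25.0% lower, so the members' shares were near those of all genes. The CPM of the groups did not overlap for the same 4 members, 3 above control and 1 below, where 51.5% of all genes did not overlap, 26.9% with A485 above control and 24.6% below. The authors' deposited table, which used DESeq2, gave q-values under 0.05 for the same 4 genes, with log2 fold changes of 1.31 for Hexim1, 0.8 for Cdk9, 0.69 for Ccnt2 and -0.4 for Brd3.

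**Figure D1:**
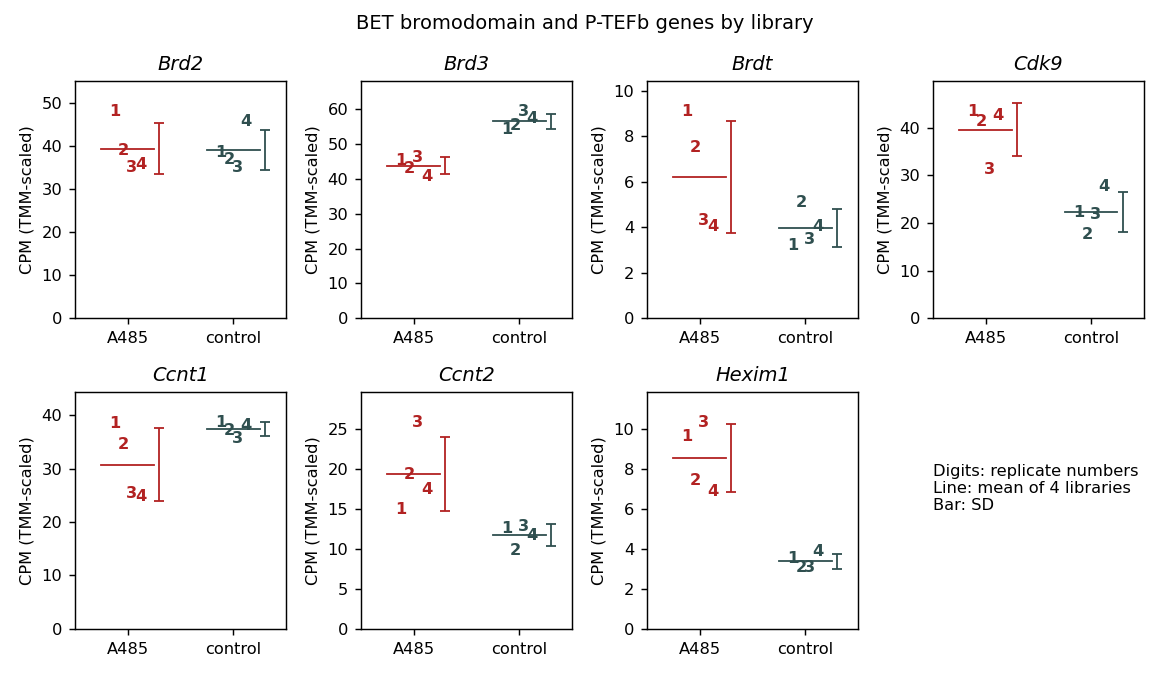
Level of each BET and P-TEFb gene in CPM (counts per 1000000 counts, TMM-scaled) in the A485 and control libraries. Each digit is the replicate number of 1 library, lines are group means and bars are SD (n = 4); the groups are separate for Hexim1, Cdk9, Ccnt2 and Brd3.

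Levels are given first in CPM, with library sizes scaled by TMM (trimmed mean of M values, a factor that balances the composition of the libraries). The factors were 0.996 to 1.21 in A485 libraries and 0.877 to 0.935 in control libraries. All levels are relative to the library, and a change in RNA per embryo was not tested. Hexim1 encodes the protein that, with 7SK RNA, inhibits P-TEFb. Its gene has 1 exon and lies on chromosome 11 at 103116325 to 103119725, on the plus strand (GRCm38.p6). Hexim1 measured 9.6, 7.39, 10.3 and 6.84 CPM in A485 replicates 1 to 4, against 3.52, 3.07, 3.08 and 3.85 CPM in control replicates 1 to 4. Every A485 library lay above every control library. The log2 fold change was 1.33 ± 0.22 (SE; 95% interval 0.84 to 1.83; edgeR adjusted p = 0.000676), above that of 80.8% of tested genes. The gene rests on few reads, 68 to 303 estimated counts per library. Leaving out any single library gave log2 fold changes of 1.23 to 1.43, and the rise was 1.32 without A485 replicates 1 and 2 and 1.33 without A485 replicates 3 and 4.

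The promoters of Hexim1 and Ccnt2 are shown because both genes rose and their annotated starts leave a stretch that no GENCODE transcript of the gene covers. The sequences, credited to RefSeq with build GRCm38.p6, cover chr11:103116075-103116230 (plus strand, 156 bases, ending at the base before the GENCODE start of Hexim1) and chr1:127773914-127774163 (plus strand, 250 bases). Capitals mark the CCAAT box (CCAAT, or ATTGG on the other strand) and the GC box (GGGCGG, or CCGCCC), which overlap at 1 place in Ccnt2.
Hexim1: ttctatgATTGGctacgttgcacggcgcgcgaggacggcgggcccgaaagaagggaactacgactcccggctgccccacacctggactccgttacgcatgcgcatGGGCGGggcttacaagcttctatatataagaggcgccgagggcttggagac
Ccnt2: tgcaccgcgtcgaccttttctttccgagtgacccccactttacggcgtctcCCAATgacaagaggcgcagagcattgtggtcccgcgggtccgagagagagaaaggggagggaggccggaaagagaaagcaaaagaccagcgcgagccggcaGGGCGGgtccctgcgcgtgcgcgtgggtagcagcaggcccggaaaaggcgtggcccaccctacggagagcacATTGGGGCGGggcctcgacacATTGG
In the 250 bases before the RefSeq start, Hexim1 held 1 CCAAT box and 1 GC box, and Ccnt2 held 3 CCAAT boxes and 2 GC boxes. Of 32851 mouse promoter windows of that length, 33.8% held a CCAAT box and 32.7% a GC box on either strand. Neither window held the exact strings TATAAA (12.4% of windows), CACGTG (an E-box, 6.02%) or TGACGTCA (the cAMP response element, 1.55%). Variants of these strings were not counted, and the Hexim1 sequence holds the similar stretch tatatataag near its end. The windows had 18 CpG in Hexim1 and 24 in Ccnt2, where the median window had 6. Cdk9, the third gene that rose, had 32 CpG, 1 CCAAT box and 1 GC box in its window, which lies inside other GENCODE transcripts of Cdk9. Among the members that did not rise, Brd3 had 37 CpG, Ccnt1 had 28, Brdt had 16 and the 3 windows of Brd2 had 27, 18 and 12.

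Cdk9 encodes the kinase of P-TEFb and lies on chromosome 2 at 32705782 to 32712784, on the minus strand. It measured 43.3, 41.3, 31.3 and 42.5 CPM in A485 replicates 1 to 4, against 22.2, 17.6, 21.8 and 27.7 CPM in control replicates 1 to 4. The lowest A485 library, replicate 3, was above the highest control library, replicate 4. Its rise was 0.83 ± 0.18 on the log2 scale (SE; 95% interval 0.43 to 1.22; edgeR adjusted p = 0.0029). The call held in each of the 19 alternatives, the lowest value being 0.71 (A485 replicates 1 and 2 left out) and the highest 1.10 (total counts as library sizes).

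The cyclins of P-TEFb behaved unequally. Ccnt2, which mouse embryos need to survive, lies on chromosome 1 at 127774164 to 127804837 on the plus strand. It measured 14.9, 19.3, 25.8 and 17.5 CPM in A485 replicates 1 to 4, against 12.6, 9.84, 12.8 and 11.7 CPM in control replicates 1 to 4. The groups did not overlap, and A485 replicate 3 was the highest library. The log2 fold change of Ccnt2 was 0.72 ± 0.20 (SE; 95% interval 0.28 to 1.16; edgeR adjusted p = 0.0111).

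Ccnt1, the other cyclin, lies on chromosome 15 at 98538690 to 98567736 on the minus strand. It measured 38.4, 34.5, 25.3 and 24.8 CPM in A485 replicates 1 to 4, against 38.6, 37.2, 35.7 and 38.1 CPM in control replicates 1 to 4. A485 replicate 1 lay among the control libraries, while A485 replicates 3 and 4 lay below all of them. The coefficient of variation was 22.0% in A485 and 3.44% in control, where counting error alone gives 3.48% in A485 and 3.44% in control. The log2 fold change of -0.28 ± 0.17 (SE; 95% interval -0.66 to 0.09; edgeR adjusted p = 0.181) did not pass. It was -0.60 without A485 replicates 1 and 2 (edgeR adjusted p = 0.00575), -0.42 without A485 replicate 1 alone (edgeR adjusted p = 0.0495) and -0.04 without A485 replicates 3 and 4 (edgeR adjusted p = 0.842). The A485 pairs were chosen from these same data, so the p-values without a pair are a description only. An antisense transcript covers 2260 bases of the gene, and the counting is not stated to use strand.

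Among the BET genes, Brd3 fell and Brd2 and Brdt did not pass. Brd3 encodes a widely expressed BET protein and lies on chromosome 2 at 27445576 to 27507657 on the minus strand. It measured 45.3, 43.1, 46 and 40.6 CPM in A485 replicates 1 to 4, against 54.2, 55.4, 59.2 and 57.2 CPM in control replicates 1 to 4. The groups did not overlap and varied little, with coefficients of variation of 5.58% in A485 and 3.9% in control. The change of Brd3 was -0.37 ± 0.12 on the log2 scale (SE; 95% interval -0.63 to -0.11; edgeR adjusted p = 0.0219). The call was lost with upper-quartile factors (adjusted p = 0.0698), with total-count scaling (log2 fold change of -0.08, adjusted p = 0.62), with a filter of 5 CPM (adjusted p = 0.088) and without control replicate 2 (adjusted p = 0.057), all in edgeR. The median over all genes was 0.372 on the log2 scale with total counts and 0.085 with TMM. Relative to that median, Brd3 stood at -0.45 under both scalings, Hexim1 at 1.25 under both, Cdk9 at 0.73 to 0.74 and Ccnt2 at 0.64 to 0.65.

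Brd2 encodes the other widely expressed BET protein of the set and lies on chromosome 17 at 34112019 to 34122814 on the minus strand. It measured 47.9, 39, 35.1 and 35.6 CPM in A485 replicates 1 to 4, against 38.6, 36.9, 35 and 45.7 CPM in control replicates 1 to 4. The groups overlapped almost fully. The log2 fold change was 0.01 ± 0.15 (SE; edgeR adjusted p = 0.951), with a 95% interval for the fold change of 0.796 to 1.28, and its sign differed between scalings, from -0.005 with RLE factors to 0.29 with total-count scaling. H2-DMa, a gene of the major histocompatibility complex, overlaps Brd2 by 3094 bases on the opposite strand, at 93.2 CPM in A485 and 196 CPM in control, so reads of the pair could be mixed if the counting ignored strand.

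Brdt encodes the BET protein of the male germline, needed for sperm formation in mice, and lies on chromosome 5 at 107331116 to 107387061 on the plus strand. It measured 9.07, 7.5, 4.29 and 4.03 CPM in A485 replicates 1 to 4, against 3.21, 5.1, 3.46 and 4.04 CPM in control replicates 1 to 4. A485 replicates 1 and 2 were above all control libraries, and A485 replicates 3 and 4 were among them. The log2 fold change was 0.65 ± 0.31 (SE; 95% interval -0.04 to 1.35; edgeR adjusted p = 0.101). It was 0.06 without A485 replicates 1 and 2 (edgeR adjusted p = 0.885) and 1.07 without A485 replicates 3 and 4 (edgeR adjusted p = 0.0069). It passed with total-count scaling (0.92, edgeR adjusted p = 0.0237) and without A485 replicate 4 (0.81, edgeR adjusted p = 0.0491). As for Ccnt1, the p-values without an A485 pair are a description only. Brdt rests on 72.8 to 221 estimated counts per library. A processed pseudogene, Gm8152, overlaps it by 637 bases on the opposite strand.

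**Figure D2:**
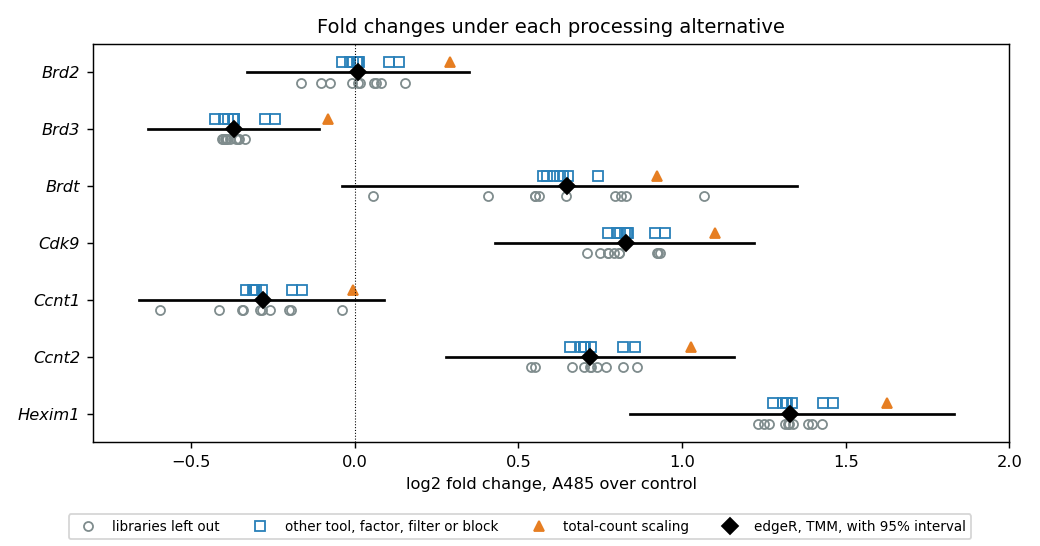
Log2 fold change of each gene, A485 over control, in edgeR with TMM (diamond, line for the 95% interval) and under the alternatives (circles for libraries left out, squares for other tools, factors, filters and the block, triangles for total-count scaling). Hexim1, Cdk9 and Ccnt2 lie above 0 in all of them and Brd3 below 0 in all of them; Brd2 lies on both sides of 0.

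The estimated counts and the FPKM values together give an implied length for each gene in each library, the length by which the reads were divided. For a gene with several transcripts it moves with the share of reads assigned to long and short ones. Brdt, with 15 transcripts listed, had an implied length of 3090, 2484, 2866 and 2538 bases in A485 replicates 1 to 4, against 4508, 5446, 4374 and 4934 bases in control replicates 1 to 4. All A485 libraries were shorter than all control libraries, including replicates 3 and 4, whose CPM lay within the control range. The mean was 2744 ± 285 bases in A485 and 4816 ± 484 bases in control (SD, n = 4 each; exact two-sided permutation test, p = 0.0286, the smallest that 4 against 4 libraries allow). Adjusted after Benjamini and Hochberg over the 5 members with at least 3 listed transcripts, this p was 0.0477. A shortening by at least 0.5 on the log2 scale without overlap was found in 9 of 8450 genes with at least 20 counts and 0.5 FPKM in every library (0.107%), and that of Brdt was -0.81. The measure was chosen after the data were seen, and the 8450 genes were not limited to those with several listed transcripts. Which transcripts of Brdt were read is not shown by values per gene.

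Smaller shifts of the same direction were found for Cdk9 and Brd2. Cdk9 was at 2063 ± 56 bases in A485 and 2229 ± 51 bases in control. Brd2 was at 3407 ± 42 bases in A485 and 3531 ± 49 bases in control (SD, n = 4 each; exact permutation p = 0.0286, adjusted 0.0477, for each gene). Lengths shortened without overlap in 3 of the 5 members with at least 3 listed transcripts, against 4.73% of the 8450 genes. Those 8450 genes were not selected by number of listed transcripts, so the shares come from unlike sets. For Brd3 (exact permutation p = 0.143) and Ccnt1 (exact permutation p = 0.6) the groups overlapped. Ccnt2 and Hexim1, with 1 and 2 transcripts listed, had means of 3316 and 3205 bases in A485 and 3318 and 3208 bases in control.

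**Figure D3:**
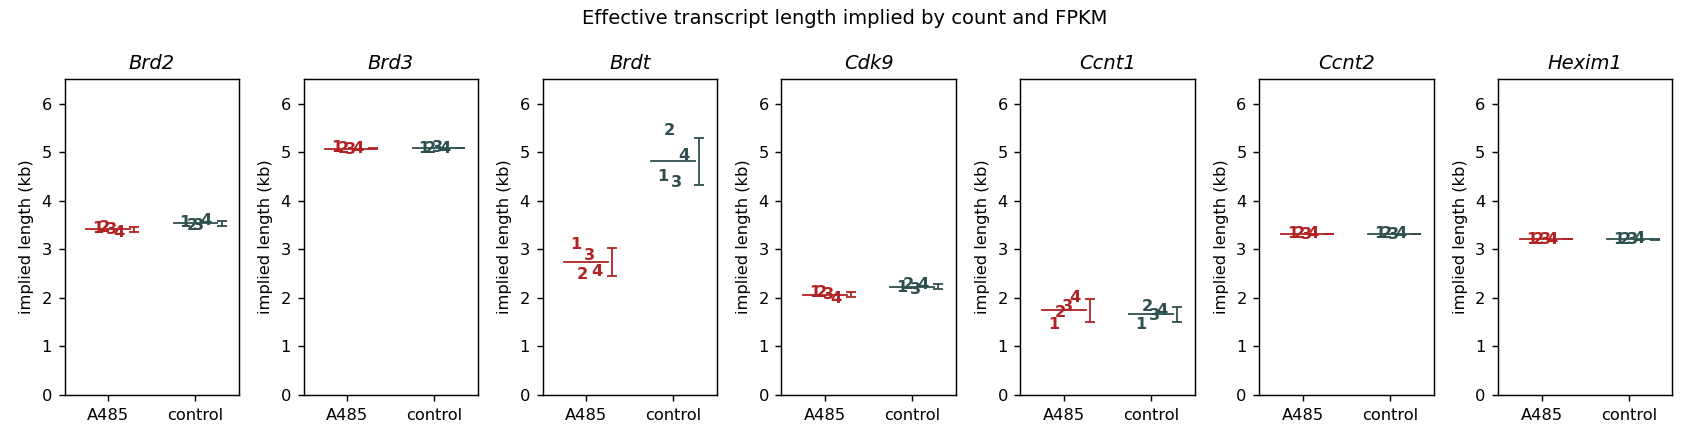
Implied transcript length in kilobases (from estimated count, FPKM and library total) in the A485 and control libraries. Digits are replicate numbers, lines are means and bars are SD (n = 4); the 2 groups are widely separate for Brdt, at 2744 bases in A485 and 4816 bases in control, and close together for the other genes.

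Levels of different genes were compared in TPM, a share of all transcripts that is divided by length. TPM is not balanced for composition, so its group ratios differ from those in CPM. In A485 the order was Cdk9 (22.2 ± 2.34 TPM), Ccnt1 (21 ± 6.08), Brd2 (13.3 ± 1.04), Brd3 (10.1 ± 1.37), Ccnt2 (6.93 ± 2.38), Hexim1 (3.11 ± 0.755) and Brdt (2.6 ± 0.932 TPM; SD, n = 4). The ranges of Cdk9 and Ccnt1 overlapped there, as did those of Ccnt1 and Brd2, Brd3 and Ccnt2, and Hexim1 and Brdt. In control the order was Ccnt1 (21.2 ± 2.27 TPM), Brd3 (10.4 ± 0.781), Brd2 (10.3 ± 0.997), Cdk9 (9.36 ± 1.76), Ccnt2 (3.32 ± 0.464), Hexim1 (0.983 ± 0.1) and Brdt (0.762 ± 0.0866 TPM; SD, n = 4). Brd3, Brd2 and Cdk9 overlapped there. Cdk9 thus stood beside Ccnt1 in A485 and beside Brd2 and Brd3 in control.

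For Brdt the TPM values were 2.95, 3.76, 1.93 and 1.77 in A485 replicates 1 to 4, against 0.65, 0.86, 0.78 and 0.76 in control replicates 1 to 4. These do not overlap, and the ratio of means was 3.41 in TPM and 1.57 in CPM. The difference between the scales follows from the implied length, by which TPM divides, and from the composition factor.

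Ratios between members within a library do not depend on library scaling, and 5 were tested with an exact two-sided permutation test and Benjamini-Hochberg adjustment over the 5. The TPM ratio of Hexim1 to the summed cyclins Ccnt1 and Ccnt2 was 0.0966, 0.0881, 0.149 and 0.121 in A485 replicates 1 to 4, against 0.0363, 0.0405, 0.0373 and 0.0472 in control replicates 1 to 4. It was higher in A485 by 1.47 on the log2 scale (exact permutation p = 0.0286, adjusted 0.0476), with no overlap. The ratio of Cdk9 to the summed cyclins was 0.663, 0.749, 0.702 and 1.21 in A485 replicates 1 to 4, against 0.33, 0.331, 0.39 and 0.48 in control replicates 1 to 4. This was a rise of 1.09 on the log2 scale (exact permutation p = 0.0286, adjusted 0.0476), again with no overlap. With estimated counts in place of TPM, the rise was 1.30 for Hexim1 and 0.81 for Cdk9 over the summed cyclins (exact permutation, adjusted p = 0.0476 each).

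Hexim1 and Cdk9 were not shown to differ in their change. With estimated counts in place of TPM, their log2 ratio differed by 0.49 without passing (exact permutation, adjusted p = 0.0571). Their ratio was 0.146, 0.118, 0.212 and 0.0997 in A485 replicates 1 to 4, against 0.11, 0.123, 0.0957 and 0.0982 in control replicates 1 to 4 (difference of 0.38 on the log2 scale; exact permutation p = 0.171, adjusted 0.171). The ratio of Ccnt1 to Ccnt2 was 5.89, 3.51, 1.78 and 2.35 in A485 replicates 1 to 4, against 6.95, 6.92, 5.66 and 6.2 in control replicates 1 to 4. Only A485 replicate 1 reached into the control range, and the difference of -1.07 on the log2 scale did not pass (exact permutation p = 0.0571, adjusted 0.0714). It passed with estimated counts in place of TPM (-1.01, exact permutation, adjusted p = 0.0476). The ratio of Brd2 to Brd3 was 1.57, 1.33, 1.14 and 1.33 in A485 replicates 1 to 4, against 1.02, 0.968, 0.864 and 1.13 in control replicates 1 to 4. Brd2 thus rose relative to Brd3 by 0.43 on the log2 scale (exact permutation p = 0.0286, adjusted 0.0476), and by 0.38 with estimated counts in place of TPM, where the test was not passed (exact permutation, adjusted p = 0.0571).

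**Figure D4:**
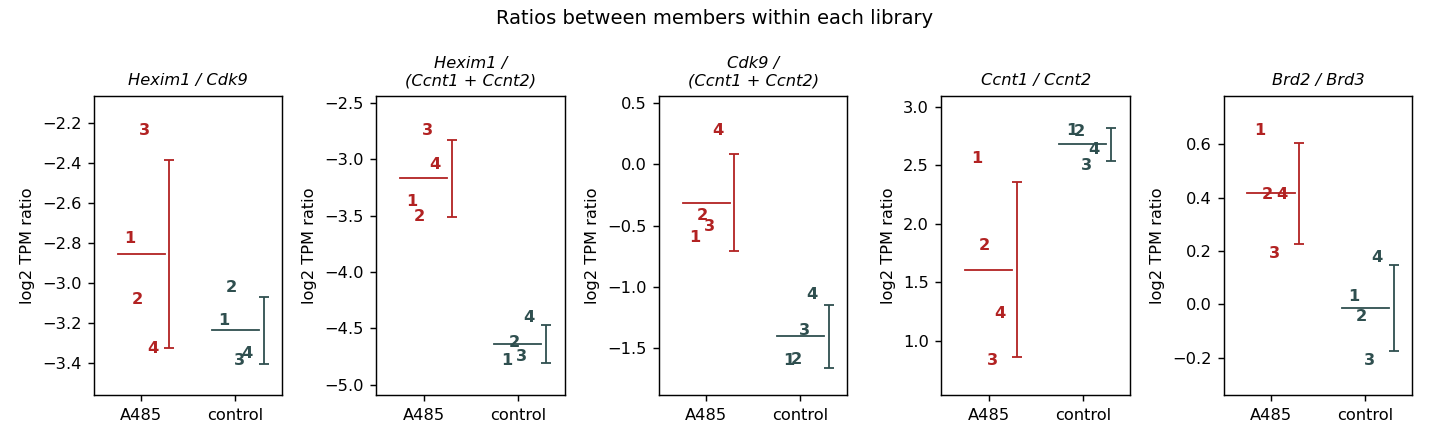
Log2 ratio of TPM between members within each library, A485 and control. Digits are replicate numbers, lines are means and bars are SD (n = 4); the groups are separate for Hexim1 and Cdk9 over the summed cyclins and for Brd2 over Brd3, and overlap for Hexim1 over Cdk9 and for Ccnt1 over Ccnt2.

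The rest of the pathway was described from lists of genes, by counts of genes past the edgeR threshold and the median log2 fold change, beside 0.085 for all genes tested, of which 29.7% were higher and 25.0% lower. Of 11 genes whose products hold or release P-TEFb, 3 rose, 2 fell and 6 did not pass (median of 0.02), and 4 rose and 0 fell under total-count scaling. Mepce, which caps 7SK RNA, rose to 15 ± 3.79 CPM in A485, against 5.95 ± 1.04 CPM in control (SD, n = 4 each), a log2 fold change of 1.34 close to that of Hexim1. Srsf2, a splicing factor found on the 7SK complex, rose with a log2 fold change of 1.08. Ppm1g, a phosphatase that frees P-TEFb, and Ddx21, a helicase that does so, fell with -0.53 and -0.63. Both falls were lost under total-count scaling. That of Ddx21 was also lost without A485 replicate 2 or 4, without control replicate 1, 2 or 3 and without A485 replicates 3 and 4 (edgeR adjusted p of 0.0507 to 0.117), and the rise of Srsf2 without the one or the other A485 pair (edgeR adjusted p = 0.0667 and 0.0909). Named after its values were seen, Hexim2, the paralogue of Hexim1, rose by 0.93 ± 0.30 on the log2 scale (SE; edgeR adjusted p = 0.0247). Its call was lost without A485 replicate 3, control replicate 1, control replicate 4 or A485 replicates 3 and 4 (edgeR adjusted p of 0.0587 to 0.141). Larp7, the protein that binds the end of 7SK, did not pass (-0.46 ± 0.18, SE; edgeR adjusted p = 0.0563).

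Of 6 subunits of the pausing factors NELF and DSIF, on which P-TEFb acts, 4 fell and 0 rose, with a median log2 fold change of -0.67. At an unadjusted p under 0.05, 0 rose and 4 fell in edgeR. At an adjusted p under 0.05, DESeq2 and limma-voom each gave 0 higher and 4 lower. Supt4a, a DSIF subunit, measured 286, 180, 175 and 157 CPM in A485 replicates 1 to 4, against 446, 465, 392 and 401 CPM in control replicates 1 to 4. Nelfe measured 68.7, 67.4, 51.7 and 50.6 CPM in A485 replicates 1 to 4, against 112, 112, 131 and 114 CPM in control replicates 1 to 4. The groups did not overlap for either gene. Nelfa fell by 0.82 and Nelfcd by 0.52 on the log2 scale. The call of Nelfcd was lost with upper-quartile factors, total-count scaling or the filter of 5 CPM, without A485 replicate 3 or 4, without control replicate 1 or 2 and without A485 replicates 3 and 4 (edgeR adjusted p of 0.0634 to 0.218). The remaining subunits did not pass, Supt5 with -0.18 ± 0.15 and Nelfb with 0.04 ± 0.17 (SE).

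The super elongation complex, which holds active P-TEFb, had 2 of 8 tested genes higher, 2 lower and 4 not past the threshold (median of -0.09). Its scaffold Aff4 measured 20.8, 23, 22.5 and 26.8 CPM in A485 replicates 1 to 4, against 7.79, 5.42, 5.79 and 8.72 CPM in control replicates 1 to 4, without overlap. Aff1, the other scaffold, rose with a log2 fold change of 0.98, and the elongation factors Ell2 and Ell fell with -0.78 and -0.61. Under total-count scaling 3 rose and 0 fell. The call of Ell was also lost without A485 replicate 2, control replicate 4 or A485 replicates 1 and 2, and that of Aff1 without A485 replicates 1 and 2.

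Of 15 genes of the PAF1 complex and other elongation factors, 4 rose and 3 fell (median of 0.04), and 6 rose and 3 fell under total-count scaling. Eloc, encoding elongin C, fell to 384 ± 203 CPM in A485, against 1950 ± 65 CPM in control (SD, n = 4 each), and Tcea1, encoding the elongation factor TFIIS, fell by 0.69 on the log2 scale. Tcea2, a TFIIS paralogue, rose to 5 ± 1.99 CPM in A485, against 0.188 ± 0.161 CPM in control, and Rtf1 of the PAF1 complex rose with a log2 fold change of 1.00. Among 12 other cyclins and kinases of transcription, 6 rose and 3 fell, with 1 falling under total-count scaling. Ccnl1, Cdk12 and Ccnl2 rose with log2 fold changes of 1.12, 1.12 and 0.76, and Ccnh, the cyclin of CDK7, fell by 0.83. In the Integrator complex, which ends transcription of paused polymerase, 3 of 14 rose and 3 fell. Its endonuclease Ints11 fell to 102 ± 7.19 CPM in A485, against 219 ± 12.6 CPM in control (SD, n = 4 each), Ints4 and Ints12 fell by 1.05 and 0.74, and Ints6 rose with 1.47. Integrator had 7 genes higher under total-count scaling, 6 with upper-quartile factors or the filter of 5 CPM, and 1 with no low-count filter, without A485 replicate 4, without control replicate 1, 3 or 4 or without A485 replicates 3 and 4.

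Of 34 bromodomain genes outside the BET family, 11 rose, 7 fell and 16 did not pass (median of 0.29), and 14 rose and 4 fell under total-count scaling. Zmynd11, a reader of methylated histone H3, rose to 14 ± 3.02 CPM in A485, against 3.14 ± 0.666 CPM in control (SD, n = 4 each). Kmt2a, a histone methyltransferase, and Kat2b, an acetyltransferase, rose with log2 fold changes of 3.41 and 2.06, to 2.89 and 2.68 CPM in A485, against 0.268 and 0.641 CPM in control, while Kat2a, the paralogue of Kat2b, fell by 1.12. Of 8 genes for proteins known to bind BET proteins, 3 rose and 0 fell (median of 0.43). At an unadjusted p under 0.05, 3 rose and 0 fell in edgeR. At an adjusted p under 0.05, DESeq2 and limma-voom each gave 3 higher and 0 lower. The 3 genes that rose in edgeR were the methyltransferase gene Nsd3 (1.57), the remodeller gene Chd4 (0.83) and Atad5 (1.10). The call of Atad5 was lost without A485 replicates 1 and 2 (edgeR adjusted p = 0.0573).

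**Figure D5:**
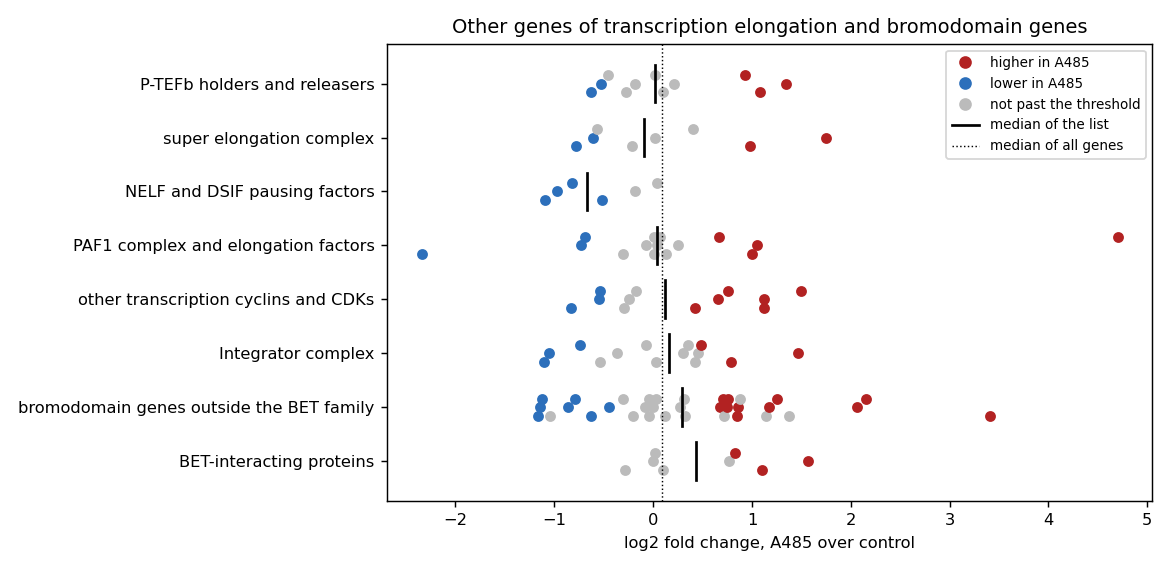
Log2 fold change, A485 over control, of each tested gene in 8 lists, coloured by its call in edgeR. Short lines are list medians and the dotted line is the median of all tested genes, 0.085; the list of pausing factors has the lowest median, -0.67.

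The genes of most similar pattern were taken by the Pearson correlation of log2 CPM over the 8 libraries, among 6325 genes with a mean of at least 10 CPM. These correlations combine the group difference with the spread between libraries and share each library's scaling factor, so they describe a pattern only. Hexim1 was followed most closely by Slc25a14 (r = 0.993) and Dgcr2 (r = 0.985), Cdk9 by Eif1b (0.979) and Huwe1 (0.974), and Ccnt2 by Aplp2 (0.985) and Herpud1 (0.981). Brd3 went with Dhodh (0.993) and Poglut1 (0.986), and 746 genes had r above 0.9 with it. Genes with r above 0.9 numbered 471 for Hexim1, 382 for Ccnt2, 165 for Ccnt1, 89 for Cdk9 and 31 for Brdt. Brdt went with Trdmt1 (0.979) and Efcc1 (0.964), which were also higher in A485 replicates 1 and 2 than in A485 replicates 3 and 4. Ccnt1 went with Khdc1a and Rbmx (0.981 each). Rbmx measured 48.7, 24.5, 5.07 and 6.54 CPM in A485 replicates 1 to 4, against 37.6, 39.5, 30.5 and 29.6 CPM in control replicates 1 to 4, so it also separated the A485 pairs. Brd2 had no gene above 0.9, the closest being Rps21 (0.892) and Keap1 (0.881).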

How the data were processed

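RNA of 8 libraries was measured, 4 of A485 and 4 of control embryos, with 3 embryos pooled in each. Per the labels' protocols, low-input cDNA was amplified before a transposase-based library step. Build GRCm38.p6, RSEM 1.2.28, HISAT2 2.2.1 and DESeq2 1.40.2 are listed in the submitters' processing notes; whether counting used strand is not stated there. The authors deposited 1 table with, per the file headers, for each library an estimated count, FPKM, TPM and normalized count (a scaled signal, not used here), plus their log2 fold change, p-value and q-value. Of the estimated counts 18.2% are not whole, so they were rounded for testing. Totals of 23641781 to 25677701 give a counting error (Poisson coefficient of variation) per library of 2.8% for Brd3 to 11.5% for Hexim1, both in control. The counts do not separate PCR copies from molecules.

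Tests used edgeR 4.0.16, run in R 4.3.3 (filterByExpr, TMM, robust quasi-likelihood fit, group as the only term), adjusted by Benjamini-Hochberg over 12936 genes. Standard errors were taken as log2 fold change over the root of F. The log2 CPM used for correlations had a prior count of 2. Ratios and implied lengths used an exact permutation test over 70 assignments (Python 3.11.15). Implied length is estimated count over the product of FPKM (reads per kilobase and per 1000000 reads) and library total, in bases. The code was tested on simulated data that took the spread of the control libraries for both groups. The A485 libraries differed more among themselves, so that test does not cover their spread. Coordinates come from RefSeq on GRCm38.p6; overlapping genes and transcripts come from GENCODE M21.

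The members and gene lists were chosen with earlier results of these data known. Text names all members, up to 4 genes of smallest p past the threshold in each list, the morula markers as a count, and for each member the 2 genes of most similar pattern. Named outside this rule were Hexim2, Larp7, Supt5, Nelfb and H2-DMa. So were the markers Inhba, Tnfaip6, Fshr, Amh, Cyp19a1 and Zp3. Alternatives were DESeq2 1.42.0, limma-voom (limma 3.58.1), RLE, upper-quartile and total-count scaling, no filter, non-robust dispersion, a 5 CPM minimum in 4 libraries, a replicate block, and leaving out libraries singly or in A485 pairs.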

Additional observations from a re-analysis of the deposited data

Results flagged for a closer look

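Cdk9 in A485 had a library far from the others in CPM: replicate 3, at 31.3 CPM, lay apart from the other three at 41.3 to 43.3 CPM, and the gap was 0.833 of the group's range, against a critical value of 0.829 for 4 samples. Without this library the log2 fold change of Cdk9 was 0.92, against 0.83 with it, and edgeR's adjusted p was 0.00167. The ratio of Cdk9 to the summed cyclins in A485 also had one, replicate 4 at 1.21, where the other libraries lay at 0.663 to 0.749. The gap was 0.844 of the range for the plain ratio and 0.799 for the log2 ratio, the scale of the test. Without that library the log2 difference was 0.90, against 1.09 with it. In all, 44 groups of 4 values were examined in this way (CPM, implied lengths, and ratios on both scales), and chance flags about 1 in 20.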

How the results depend on the processing

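Hexim1, Cdk9 and Ccnt2 kept their direction and their call in all 19 alternatives of the fit. Leaving out single libraries gave log2 fold changes of 1.23 to 1.43 for Hexim1, 0.75 to 0.93 for Cdk9, 0.55 to 0.82 for Ccnt2, -0.41 to -0.34 for Brd3, 0.41 to 0.83 for Brdt, -0.42 to -0.19 for Ccnt1 and -0.10 to 0.08 for Brd2. Brd3 lost its call with upper-quartile factors (-0.28), total-count scaling (-0.081) and the 5 CPM filter (-0.24); the cause was not tested. Brd2, at 0.013, was below 0 with DESeq2 (-0.014), RLE factors (-0.005), no low-count filter (-0.039), without A485 replicate 1 (-0.104), control replicate 1 (-0.009) or control replicate 3 (-0.075) and without A485 replicates 1 and 2 (-0.163). Brdt passed with total counts as library sizes (0.92), when A485 replicates 3 and 4 were left out (1.07), and without A485 replicate 4 alone (0.81), and was not tested under the 5 CPM filter. Ccnt1 passed without A485 replicates 1 and 2 (-0.60) and without A485 replicate 1 alone (-0.42). The number of members lower, 1 in the reported fit, was 0 with upper-quartile factors, total-count scaling, the 5 CPM filter and the replicate block, 2 without A485 replicates 1 and 2, and 0 to 2 without single libraries; 3 to 4 were higher without single libraries. Over all genes 3839 were higher and 3238 lower, with 3509 to 4165 and 2784 to 3520 without single libraries, and the 5 CPM filter, under which fewer genes are tested, gave 2526 higher and 2369 lower. Of all calls 54.2% were higher with TMM and 68.2% with total-count scaling.

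The labels share replicate numbers between groups, but deviations from the group means correlated by only 0.0051 to 0.104 between libraries of the same number, so the numbers were not taken to pair the pools. With the replicate block Brd3 had the same log2 fold change of -0.37 with an adjusted p of 0.0649 in edgeR, and no other member's call changed. The Integrator genes higher in A485 then numbered 1, against 3 without the block.

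Among the ratios, that of Hexim1 to Cdk9 changed sign with a pseudocount of 1 TPM (-0.14), and estimated counts gave -1.01 for Ccnt1 to Ccnt2 (passing) and 0.38 for Brd2 to Brd3 (not passing). Without single libraries the log2 differences were 0.17 to 0.54 for Hexim1 to Cdk9, 1.33 to 1.58 for Hexim1 to the cyclins, -1.39 to -0.81 for Ccnt1 to Ccnt2, 0.90 to 1.21 for Cdk9 to the cyclins and 0.35 to 0.50 for Brd2 to Brd3; 3 against 4 libraries cannot give an exact p under 0.05, so these have no test. The implied length of Brdt, an alternative measure added after seeing the data, differed by -0.87 to -0.75 on the log2 scale without single libraries.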
